A study of Sus scrofa with 14 samples.

Results

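XDH, BTN1A1, MFGE8 and PLIN2, which encode proteins of the milk fat globule, were followed through the pig mammary gland and into milk cells. A list of 5 globule genes (XDH, BTN1A1, MFGE8, PLIN2 and CIDEA) was looked up by gene symbol among the 30071 gene identifiers of the counts, and 4 of the 5 were found. CIDEA was not found under its symbol and is not analysed here.

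Milk fat leaves the secretory epithelial cell as a droplet that buds through the apical membrane and is wrapped in it. PLIN2 (perilipin 2) coats the droplet inside the cell. XDH (xanthine dehydrogenase, also an enzyme of purine breakdown) and BTN1A1 (butyrophilin, a membrane protein) bind each other at the apical membrane. MFGE8 (lactadherin) lies on the outside of the globule, binds phosphatidylserine and integrins, and elsewhere helps phagocytes to take up dying cells.

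The glands came from multiparous sows, 2 at each of 5 stages: day 90 of gestation (G90), day 0 (L0) and day 20 (L20) of lactation, and 2 days (PI2) and 7 days (PI7) after natural involution. Each of the 10 glands gave 1 single-nucleus library. Spatial counts covered 1 section per stage for G90 and PI2, and milk cells gave 1 library for L0 and another for L20. The title of the L0 milk sample carries the letter that marks G90 in the gland titles, and its stage was taken from the other labels, which give L0. The labels name no treatment and no edited allele. Levels are given as unique molecular identifiers (UMIs, counted RNA molecules) of a gene per 1000000 UMIs (CPM), which are not scaled by gene length, so levels of different genes were not compared.

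The 10 glands held 18962138 to 53165191 UMIs, and 126833 of 128233 nuclei passed the quality filter. A nucleus took the class for which it had at least 2 marker UMIs and more than for all other classes together, and none of the 4 genes was a marker. In this way 98119 nuclei (77.4%) got a class, among them 65966 epithelial nuclei, of which 6.03% lay exactly at the limit of 2. That share was 5.84% to 20.3% in the other classes, with 14.8% in lymphoid nuclei, and in L20 replicate 1 it was 30 of 50 lymphoid nuclei. Caseins, which mark milk secretion, made up 1.06% and 0.774% of UMIs in the L0 glands but 0.0721% and 0.0106% in the L20 glands, less than in the G90 glands (0.121% and 0.806%). For these counts the stage of the L20 glands rests on their labels and is in doubt by these shares, which bears on every L20 and lactating value. The study also describes stained sections of each stage group, which are not linked here to single libraries. LALBA (alpha-lactalbumin, also a milk protein) was at 133 and 1.37 CPM in the L20 glands and 0.906 and 61.2 in the G90 glands. In the PI2 glands caseins made up 0.0384% and 0.0908% of UMIs, and LALBA was at 0 and 92.2 CPM. Glands of one stage were not always alike: Spearman's rho between epithelial sums of the same stage ranged from 0.706 to 0.961 over 5 pairs, and 37 of the 40 pairs of different stages lay above the lowest of these. Of those 40 pairs, 3 lay above the median same-stage pair. PI2 replicate 1 had a rho of 0.937 with PI7 replicate 2. L20 replicate 2 had a rho of 0.919 with PI7 replicate 1 and 0.761 with L20 replicate 1. PI2 replicate 2 had a rho of 0.906 with L20 replicate 1 and 0.706 with PI2 replicate 1. The PI2 labels are therefore in doubt too, which bears on every PI2 value. Between 52 and 205 barcodes were shared by each pair of gland libraries.

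XDH lies on chromosome 3 of the Sscrofa11.1 genome, at 107987060 to 108052043 on the plus strand, with 36 exons in the RefSeq annotation. BTN1A1 (chromosome 7, 20977940 to 20985300, plus strand, 7 exons) and MFGE8 (chromosome 7, 54539970 to 54554885, minus strand, 9 exons) share a chromosome. PLIN2 lies on chromosome 1 at 203683867 to 203709277, on the plus strand, with 8 exons. Whether other annotated genes overlap any of the 4 was not tested. BTN1A1 has close relatives, so reads that its paralogs share could be counted to the wrong gene.

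The promoters of XDH and BTN1A1 are shown beside that of CSN2 (beta-casein), the gene whose level followed that of XDH most closely across glands. Each line gives the 250 bases before the RefSeq start, read 5′ to 3′ on the gene's own strand: chr3:107986810-107987059 (plus strand) for XDH, chr7:20977690-20977939 (plus strand) for BTN1A1 and chr8:66922637-66922886 (minus strand) for CSN2. Capitals mark the letters TTCNNNGAA, the core that STAT5, a transcription factor of prolactin signalling, is known to bind. The motif reads the same on both strands.
XDH: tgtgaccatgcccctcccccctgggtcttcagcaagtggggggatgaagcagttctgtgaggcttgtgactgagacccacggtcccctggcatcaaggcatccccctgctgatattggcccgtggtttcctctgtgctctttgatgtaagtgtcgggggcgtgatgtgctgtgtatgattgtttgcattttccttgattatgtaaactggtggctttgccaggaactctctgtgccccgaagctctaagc
BTN1A1: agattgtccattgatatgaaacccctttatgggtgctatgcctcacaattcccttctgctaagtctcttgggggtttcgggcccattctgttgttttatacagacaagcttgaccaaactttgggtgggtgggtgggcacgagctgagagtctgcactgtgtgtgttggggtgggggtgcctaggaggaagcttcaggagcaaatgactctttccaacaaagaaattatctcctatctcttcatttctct
CSN2: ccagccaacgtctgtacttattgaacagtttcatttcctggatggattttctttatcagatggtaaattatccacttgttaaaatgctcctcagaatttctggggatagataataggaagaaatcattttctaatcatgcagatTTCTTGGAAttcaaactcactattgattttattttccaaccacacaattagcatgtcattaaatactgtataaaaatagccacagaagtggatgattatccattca
The CSN2 window held 1 match, which began 106 bases before the start (position -106). The windows of XDH, BTN1A1, MFGE8 and PLIN2 held 0 matches. Of 19556 promoters of the same length, 1196 (6.12%) held the motif. A match is a run of letters and no proof of a bound site, and 0 matches say only that these letters are not in this window.

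The first question was how the 4 genes stood at each stage. In epithelial nuclei, XDH was at 373 and 4378 CPM in the 2 G90 glands, 3695 and 2324 for L0, 1041 and 171 for L20, 26.0 and 1525 for PI2, and 24.6 and 23.3 for PI7. XDH was thus high in both L0 glands and low in both PI7 glands, while the 2 glands of G90, L20 and PI2 each split into a high and a low one. The 2 PI2 glands differed 58.7-fold, and the mean at that stage was 776 ± 1060 CPM (SD, n = 2).

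BTN1A1 was at 0.524 and 198 CPM at G90, 166 and 101 for L0, 107 and 49.0 for L20, 2.27 and 34.7 for PI2, and 10.1 and 1.79 for PI7. The low G90 gland (replicate 1) stood out, since its 5688 epithelial nuclei held 12 BTN1A1 UMIs in all. BTN1A1 was detected in 0.158% of those nuclei, XDH in 36.0%, MFGE8 in 41.2% and PLIN2 in 60.3%. In that gland, XDH, MFGE8 and PLIN2 were present while BTN1A1 was close to 0.

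MFGE8 was at 228 and 219 CPM at G90, 202 and 181 for L0, 277 and 47.5 for L20, 133 and 43.5 for PI2, and 68.2 and 88.4 for PI7. PLIN2 was at 474 and 543 CPM at G90, 596 and 696 for L0, 719 and 278 for L20, 371 and 305 for PI2, and 208 and 312 for PI7. Both spanned a narrower range than the others, with the highest gland 6.37 times (MFGE8) and 3.46 times (PLIN2) the lowest, against 188 times for XDH and 378 times for BTN1A1. For MFGE8 and PLIN2 the L20 stage held the highest gland of all and one of the lowest.

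**Figure D1:**
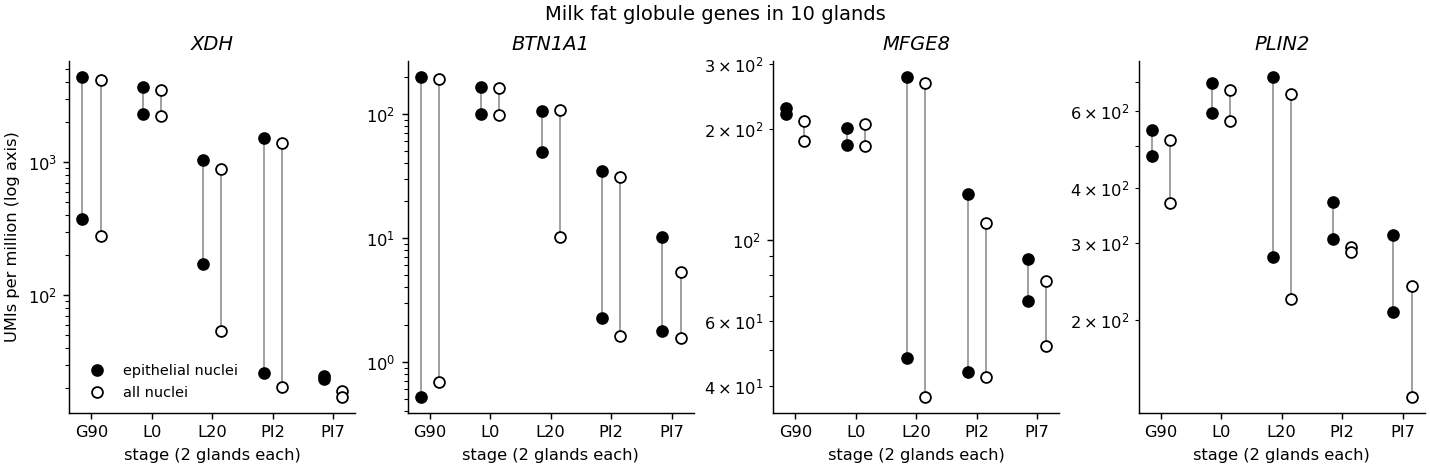
Level of each gene (CPM, log axis) in each of the 10 glands by stage, in epithelial nuclei (filled points) and in all nuclei (open points), with a line joining the 2 glands of a stage. XDH ran from 23.3 to 4378 CPM in epithelial nuclei, with glands of one stage far apart at G90, L20 and PI2.

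In sums over all nuclei the picture was much the same: XDH was at 280 and 4158 CPM at G90, 3512 and 2220 for L0, 884 and 54.2 for L20, 20.3 and 1392 for PI2, and 19.2 and 17.2 for PI7. BTN1A1 in L20 replicate 2 was the main exception, at 49.0 CPM in epithelial nuclei and 10.1 in all nuclei. That gland had the smallest share of epithelial nuclei, 8.69%, against 23.8% to 83.1% in the others. Its epithelial nuclei held 72.5% of the BTN1A1 UMIs of the gland and 14.9% of all UMIs. From sums over all nuclei alone, fewer epithelial nuclei and less RNA per nucleus cannot be told apart.

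Stages were compared with edgeR's quasi-likelihood test across all genes, with Benjamini-Hochberg adjustment, and a gene was called at an adjusted p under 0.05 and an absolute log2 fold change over 1. For L0 against G90, L20 against L0, PI2 against L20, PI7 against PI2, PI7 against G90, and lactating (L0, L20) against the other stages, 0 of the 4 genes were called, in all nuclei or in epithelial nuclei. Few genes were called anywhere: 0% of 22695 genes in each contrast over all nuclei, and 0.0103%, 0%, 0%, 0%, 0.0103% and 0.00515% of 19400 genes in epithelial nuclei, in the order given. At an unadjusted p under 0.05, edgeR's test gave 464 to 2912 genes over all nuclei and 475 to 2343 in epithelial nuclei. By the study's methods the replicates of a group were independent animals, so p-values measure the spread between sows, with 2 glands per stage.

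Between G90 and PI7, XDH had the largest difference of the 4. In epithelial nuclei its log2 fold change from G90 to PI7 was -6.90 (SE 1.95, adjusted p = 0.192 by edgeR with Benjamini-Hochberg adjustment), and over all nuclei it was -7.36 (SE 2.16, adjusted p = 0.425). The call depended on the fit: DESeq2 gave an adjusted p of 0.00397 in epithelial nuclei and 0.0123 over all nuclei, edgeR with no filter on low counts gave 0.00446 and 0.0320, and edgeR on the 4 glands of these stages alone gave 0.0315 and 0.0453. By these rules 3.14%, 1.61% and 1.78% of genes were called in epithelial nuclei, and 1.32%, 0.247% and 0.145% over all nuclei. The levels of the 2 stages did not overlap for XDH, MFGE8 and PLIN2, but 47% of the 16293 genes of at least 1 CPM on average in epithelial nuclei did not overlap between these stages either.

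For the same contrast, BTN1A1 had a log2 fold change of -4.41 (SE 2.00), MFGE8 of -1.62 (SE 0.79) and PLIN2 of -1.08 (SE 0.56), with adjusted p from 0.434 to 0.497 (edgeR, Benjamini-Hochberg). BTN1A1 turned to 3.49 without the G90 replicate 2 gland. In lactating against other stages, epithelial nuclei gave 2.10 (SE 0.97) for XDH, 2.34 (SE 1.12) for BTN1A1, 0.85 (SE 0.49) for MFGE8 and 0.88 (SE 0.35) for PLIN2, with adjusted p from 0.410 to 0.580. The median over all genes was -0.07. MFGE8 turned to -0.23 without the L20 replicate 1 gland.

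The levels of XDH and CSN2 ran in parallel over the 10 glands. CSN2 was at 121 and 2585 CPM in epithelial nuclei at G90, 1982 and 2067 for L0, 195 and 26.0 for L20, 3.01 and 510 for PI2, and 2.14 and 0.0812 for PI7. The glands high in XDH were therefore those high in beta-casein at every stage whose glands split. This did not hold for CSN1S1, another casein. It had the order of XDH at G90 (1287 and 5016 CPM) but the reverse order for L20 (291 and 323) and PI2 (387 and 148). Among 9064 genes of at least 10 CPM on average, CSN2 had the highest Pearson correlation with XDH on the scale of log2(CPM + 1), at 0.989 over 10 glands, followed by IPPK, an inositol phosphate kinase (0.959), and LPIN1, a phosphatidate phosphatase of triglyceride synthesis (0.956). For the other milk protein genes the correlation with XDH was 0.734 (CSN1S1), 0.840 (CSN3) and 0.909 (LALBA). These points share libraries and depth, and the values are descriptions without a test.

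BTN1A1 was most like ANKRD22 (0.940), RASSF8 (0.925) and MPP6 (0.904), and its correlation with CSN2 was 0.753. MFGE8 was most like ITIH4 (0.900) and RHBDL1 (0.899), and PLIN2 was most like FAM20A (0.898), CCM2L (0.878) and SH2D3C (0.873). The correlation with CSN2 was 0.450 for MFGE8 and 0.719 for PLIN2. Among the 4 genes themselves the closest pairs were MFGE8 with PLIN2 (0.864) and XDH with BTN1A1 (0.780), and the farthest was BTN1A1 with MFGE8 (0.193).

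**Figure D2:**
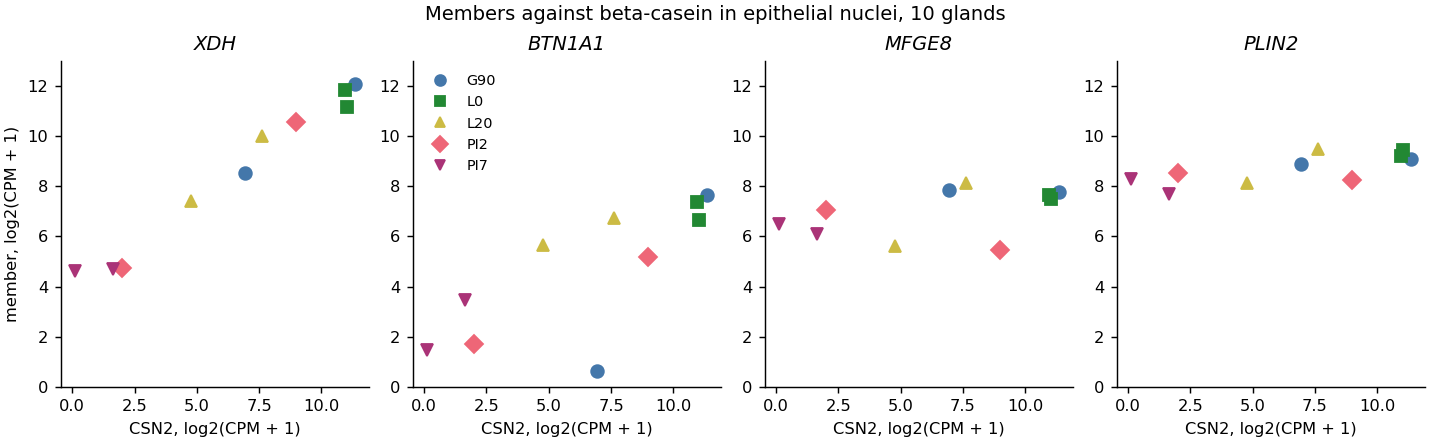
Level of each gene against that of beta-casein (CSN2) in epithelial nuclei of the 10 glands, both as log2(CPM + 1), with stages by colour and shape. XDH followed CSN2 closely (Pearson's r 0.989), and the lowest point for BTN1A1 was a G90 gland at 0.524 CPM.

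Within epithelial nuclei, detection of the genes was compared after each nucleus was thinned to 1000 UMIs. XDH was then detected in 19.8% and 88.1% of epithelial nuclei at G90, 85.3% and 60.5% for L0, 45.6% and 9.38% for L20, 2.04% and 57.2% for PI2, and 2.68% and 1.85% for PI7. Lymphoid nuclei were taken for comparison, and whether they express XDH themselves was not tested. They gave 2.54% and 40.0% at G90, 46.7% and 32.4% for L0, 20% (of 10 nuclei) and 1.18% for L20, 0% (of 108) and 21.4% for PI2, and 1.38% and 0% (of 251) for PI7. The epithelial share was above the lymphoid share in each of the 10 glands, but in PI2 replicate 1 the 3 nuclei of 108 that a count of 0 allows are a larger share than the epithelial one. Before thinning, the median depth was 1728 to 3838 UMIs in epithelial and 683 to 1475 in lymphoid nuclei, and thinning left out 165 to 1128 epithelial nuclei of a gland, the most in L0 replicate 2 (1128 of 7583), and 40 to 521 lymphoid nuclei, which left 10 to 651.

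MFGE8 was detected more often in epithelial nuclei with an XDH UMI than in those without in 10 of 10 glands, and BTN1A1 and PLIN2 each in 8 of 10. In G90 replicate 2, BTN1A1 was found in 17.8% of the 12968 nuclei with XDH and in 7.84% of the 1748 without. In L0 replicate 1 the shares were 14.6% and 7.70%, and in PI2 replicate 2 they were 3.4% and 1.91%. In these glands BTN1A1 was found more often where XDH was found.

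Dividing nuclei were set apart by at least 2 UMIs of TOP2A, KIF15, TPX2 and SMC4, and the 6678 dividing epithelial nuclei were compared with 50741 that had none. The ratio of the level in dividing to that in other nuclei had a median over glands of 0.970 for XDH, 0.976 for BTN1A1, 0.962 for MFGE8 and 0.924 for PLIN2. For BTN1A1 the median is over 9 glands, without G90 replicate 1, which had 0 UMIs in dividing and 10 in other nuclei and would lower it. The level was higher in dividing nuclei in 4 of 10 glands for XDH, BTN1A1 and PLIN2 and in 3 of 10 for MFGE8, so no gene was higher or lower in every gland.

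The next question was which cells of the gland held these RNAs. UMIs were summed per gland and class where a class had at least 20 nuclei, and classes were compared by edgeR's quasi-likelihood test with the gland as a block. All 4 genes were called higher in epithelial nuclei than in the mean of the other 7 classes, a call that 9.81% of 12806 genes got, with 23.5% called in either direction. The log2 fold change was 2.35 (SE 0.19) for XDH, 2.99 (SE 0.34) for BTN1A1, 1.09 (SE 0.14) for MFGE8 and 1.64 (SE 0.16) for PLIN2. The value of BTN1A1 rests partly on mural nuclei (pericytes and smooth muscle of vessels), where it was at 0 UMIs, and is no bound. MFGE8 was just past the fold limit of 1 and was under it with DESeq2 (0.79), with scaling by total UMIs (0.89), without G90 replicate 1 (0.997) or without G90 replicate 2 (0.92).

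XDH was called higher in epithelial nuclei than in each of the other 7 classes, and BTN1A1 than in 6 of 7. The exception for BTN1A1 was mural nuclei, with 0 UMIs in 321 nuclei of 5 glands, which allows up to 5.95 CPM at 3 UMIs. Without the gland as a block, XDH and BTN1A1 were not both called higher against myoepithelial, fibroblast or adipocyte nuclei. The median level of BTN1A1 over 10 glands was 41.9 CPM in epithelial, 13.3 in endothelial, 11.13 in myoepithelial, 10.5 in myeloid, 4.04 in fibroblast and 3.53 in lymphoid nuclei. Adipocyte nuclei had 6 BTN1A1 UMIs in all and none in 4 of 6 glands. In each class other than the epithelium at least 1 gland was at 0, and the highest gland reached 61.0 to 117 CPM outside mural nuclei, so the ranges of these classes overlapped. Genes called higher in epithelial nuclei were 5.94% of all against myoepithelial, 16.1% against mural, 9.83% against fibroblast, 10.2% against endothelial, 11.9% against adipocyte, 14.9% against myeloid and 16.2% against lymphoid nuclei. In either direction, 14.6%, 26.2%, 25.4%, 24.6%, 20.8%, 28.9% and 32% were called, in the same order.

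The levels of XDH in other classes followed those of the epithelium of the same gland. In lymphoid nuclei XDH was at 42.6 and 731 CPM at G90, 1309 and 606 for L0, 157 and 19.5 for L20, 6.57 and 321 for PI2, and 20.2 and 3.86 for PI7. The 4 glands highest in epithelial XDH were also the 4 highest in lymphoid nuclei, and the lymphoid level was 11.4% to 81.9% of the epithelial one. CSN2 in lymphoid nuclei stood at 0% to 115% of its epithelial level. The other classes were therefore also compared with lymphoid nuclei, a comparison chosen after the values were seen.

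Against lymphoid nuclei, neither XDH nor BTN1A1 was called in any of the 6 other classes. For XDH the log2 differences from lymphoid nuclei lay between -0.42 (SE 0.44, adipocyte) and 0.50 (SE 0.29, myeloid). MFGE8 and PLIN2 were different. MFGE8 was called higher in mural nuclei (log2 fold change 2.04, SE 0.31) and in fibroblasts (1.39, SE 0.22), and PLIN2 in adipocyte (1.53, SE 0.30), myoepithelial (1.25, SE 0.25) and myeloid nuclei (1.13, SE 0.24). Genes called higher than in lymphoid nuclei were 9.18% of all in mural, 15.6% in fibroblast, 10.5% in adipocyte, 13.4% in myoepithelial, 13.8% in endothelial and 5.9% in myeloid nuclei, and in either direction 20.6%, 25.4%, 22.5%, 25.2%, 22.5% and 10.7%, in the same order. MFGE8 was called lower in adipocyte nuclei (-1.03, SE 0.39), on 28 UMIs in all and with the call lost in 10 alternative settings, where 22.5% of genes were called in either direction.

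MFGE8 had no higher level in the epithelium than in mural nuclei in most of the 5 glands with at least 20 mural nuclei. No L0 gland was among these. In mural nuclei it was at 112 CPM in G90 replicate 1, 123 in L20 replicate 2, 171 in PI2 replicate 1, and 127 and 161 in the PI7 glands, with 72 UMIs in all, and it was above the epithelial level in 4 of the 5 glands. The log2 difference of epithelial from mural nuclei was -0.43 (SE 0.29, edgeR's adjusted p = 0.258), and it was 0.49 without the gland as a block. XDH in the same mural nuclei was at 5.95 to 67.0 CPM, from 8 UMIs.

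In fibroblasts, MFGE8 was at 105 and 91.8 CPM at G90, 325 and 285 for L0, 201 and 63.8 for L20, 78.6 and 90.7 for PI2, and 64.4 and 94.7 for PI7. Fibroblasts were above the epithelium in 5 of 10 glands, both L0 glands among them. The log2 difference of epithelial nuclei from fibroblasts was 0.22 (SE 0.19, adjusted p = 0.352 by edgeR), and from myoepithelial nuclei 0.96 (SE 0.21), which is just under the fold limit.

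PLIN2 was the only one of the 4 called higher than in lymphoid nuclei in adipocyte and in myeloid nuclei. The myeloid call was lost without L20 replicate 2 (0.87), and both were lost with classes taken from clusters (0.44 and 0.73). In adipocyte nuclei PLIN2 was at 1708 and 183 CPM at L20, 195 and 332 for PI2, and 141 and 97.9 for PI7, and the L20 replicate 1 value came from 22 nuclei, 7 of them at the limit of 2 marker UMIs, and from 56 UMIs. The log2 difference of epithelial from adipocyte nuclei was 0.80 (SE 0.29), under the fold limit, and 1.18 without L20 replicate 1, which was called. XDH in adipocyte nuclei had 75 UMIs in all, 55 of them in PI2 replicate 2. In myeloid nuclei PLIN2 was at 83.3 to 428 CPM, with the highest value in L20 replicate 2, where the epithelium was at 278. The other 9 glands had more PLIN2 in the epithelium than in myeloid nuclei.

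**Figure D3:**
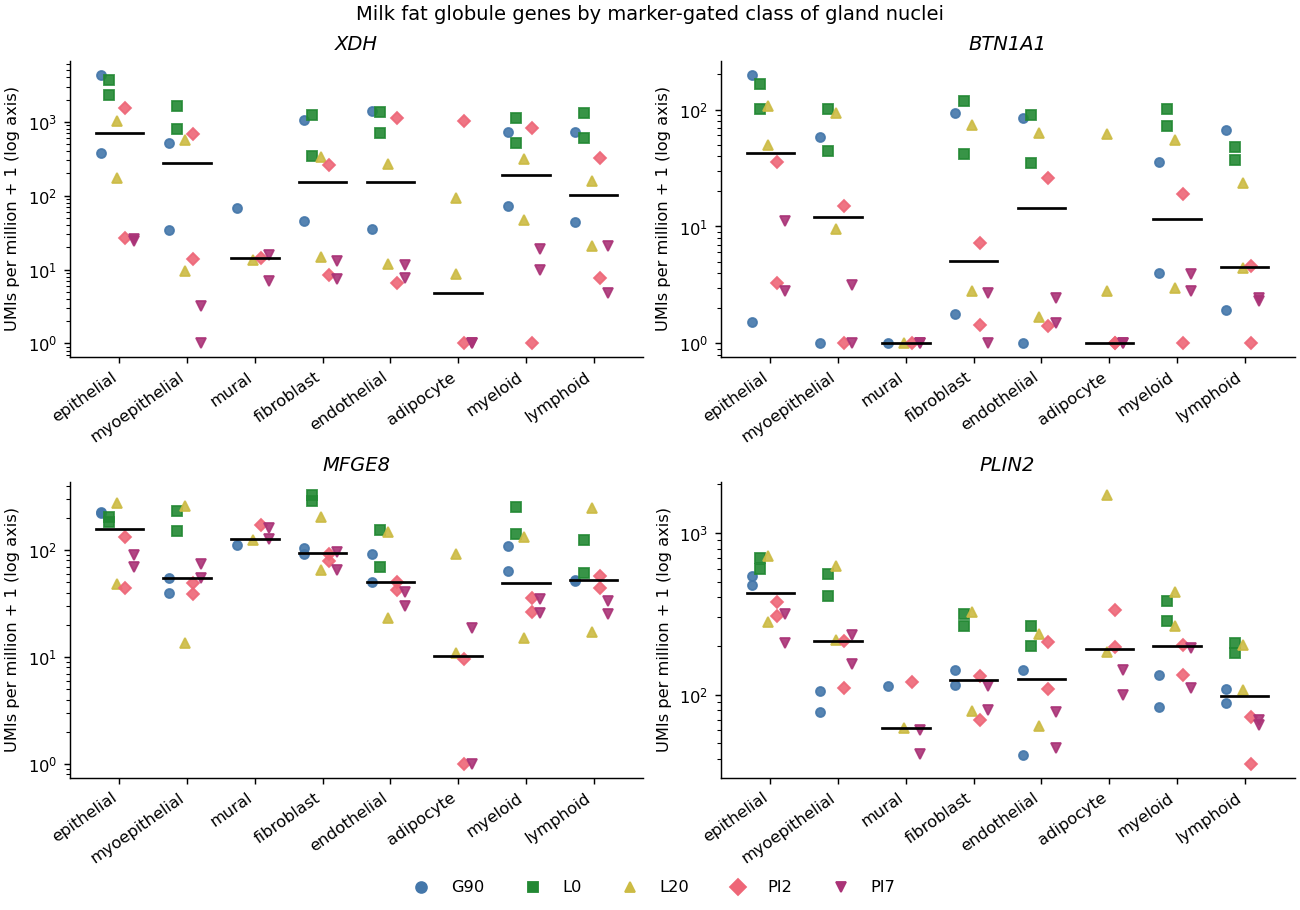
Level of each gene (CPM + 1, log axis) by marker-gated class of gland nuclei, with 1 point per gland with at least 20 nuclei of the class, stages by colour and shape, and a bar at the median. Each gene had its highest median in epithelial nuclei, but medians are over 10 glands there, 5 for mural and 6 for adipocyte nuclei. Within the 5 glands with mural nuclei, MFGE8 was higher in epithelial than in mural nuclei in 1. MFGE8 in mural nuclei lay between 112 and 171 CPM, and PLIN2 in adipocyte nuclei lay between 97.9 and 1708 CPM.

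Other genes of fat globules and droplets were read from the same tests. The lists held 58 genes found in the counts: 8 of the globule membrane, 15 of lipid droplets, 17 of fatty acid uptake and triglyceride assembly, 10 that bind or recognise phosphatidylserine or the integrins of MFGE8, 6 of purine breakdown and 2 butyrophilins. Between stages, 57 of them could be tested, and 0 were called by edgeR's test in any contrast, with 4 to 20 at an unadjusted p under 0.05 in epithelial nuclei and 5 to 18 over all nuclei. In epithelial nuclei the 20 were for PI7 against G90, beside 2254 of all 19400 genes, and the 4 for PI2 against L20, beside 682. Over all nuclei the 18 were for PI7 against G90, beside 1706 of 22695 genes, and the 5 for PI7 against PI2, beside 464. In lactating against other stages, their median log2 fold change in epithelial nuclei was 0.22, beside -0.07 for all genes, and that of the 8 globule membrane genes was 0.72. Within lactation the 8 genes had a median of -1.18 for L20 against L0, beside 0.10 for all genes.

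From each list the genes with the highest mean CPM are named, a choice by UMIs that ranks no gene above another. From the globule membrane list these were ANXA2 (annexin A2), at 272 to 732 CPM over all nuclei of a gland, CD36 (a fatty acid transporter), at 31.0 to 1321, and SLC34A2 (a phosphate transporter), at 16.6 to 734. CD36 reached 1321 and 392 CPM in the L0 glands and 31.0 and 105 in the G90 glands. Of triglyceride assembly, ACSL3 (which activates fatty acids) was at 114 to 1728 CPM, GPAT4 at 51.0 to 649 and GPAM at 50.6 to 402. GPAT4 and GPAM are glycerol-3-phosphate acyltransferases. ACSL3 was highest in L0 replicate 1 and lowest in L20 replicate 2.

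From the lipid droplet list they were BSCL2 (24.6 to 152 CPM), which encodes seipin, and the lipases PNPLA2 (17.9 to 119) and MGLL (7.17 to 102). Of phosphatidylserine bridging they were ITGAV (80.4 to 315 CPM), a chain of the integrins that MFGE8 binds, MERTK (38.7 to 262), a receptor of phagocytes, and ITGB5 (29.5 to 147). Of purine breakdown they were AOX1 (32.0 to 423 CPM), UOX (15.9 to 47.4) and GDA (5.17 to 60.8), and the butyrophilins were BTN2A2 (4.88 to 59.4) and BTNL9 (0.489 to 23.7).

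Between cell classes, 54 of these genes could be tested, and 9 were called higher and 15 lower in epithelial nuclei than in the mean of the other classes, where 9.81% of all genes were called higher and 23.5% in either direction. They had a median log2 fold change of -0.01 beside 0.17 for all genes. The 9 that were higher were the membrane genes MUC15 (2.998, SE 0.26), SLC34A2 (2.70, SE 0.17), ANXA2 (1.16, SE 0.14) and FABP3 (1.01, SE 0.19), together with TYRO3, GPAM, PLIN3, ACSL3 and GDA at 1.05 to 1.68. Of the droplet coat family, PLIN2 and PLIN3 were called higher, PLIN5 (0.68, SE 0.23) was under the fold limit, and PLIN4 (-1.09, SE 0.35) was called lower. Against single classes, PLIN4 was called lower than adipocyte nuclei (-6.69, SE 0.36) and was not called against the other 6. PLIN1 (-1.16) was lower too, but it is itself a marker of the adipocyte gate.

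The other 13 genes called lower were AXL, FABP4, LIPE, FABP5, CIDEC, MOCOS, FOLR1, MGLL, TIMD4, BTNL9, DGAT2, STAB1 and CD36, at -2.96 (AXL, a receptor of phagocytes) to -1.01 (CD36). CIDEC, a relative of CIDEA and a droplet fusion protein known from adipocytes, was at -2.07 (SE 0.38). Against adipocyte nuclei alone, 8 of the 54 were called higher and 23 lower, where 11.9% of all genes were called higher and 20.8% in either direction. The median was -0.63 beside 0.24 for all genes.

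Milk cells were the next sample, with 1 library per stage, so no test between stages was possible. Of 17571 kept cells of the L0 milk, 2956 were epithelial, 12055 myeloid and 275 lymphoid, and of 14514 of the L20 milk, 1050, 10374 and 1041. The 2 milk libraries shared 284 barcodes. Median depth of epithelial cells was 17362 UMIs in L0 milk and 2882 in L20 milk, and this difference in depth goes with every comparison of epithelial cells between the libraries. Myeloid cells had 1214 and 1251 UMIs. Intervals given here are exact and cover counting error only.

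In epithelial cells of milk, XDH was at 1327 CPM (95% Poisson interval 1317 to 1336) at L0 and 994 (974 to 1014) at L20. BTN1A1 was at 1154 (1145 to 1163) and 1023 (1003 to 1044), and MFGE8 at 2502 (2489 to 2515) and 1823 (1796 to 1851). PLIN2 went the other way, at 760 (753 to 767) and 1190 (1168 to 1212). The log2 ratio of L20 to L0 was -0.42 for XDH, -0.17 for BTN1A1, -0.46 for MFGE8 and 0.65 for PLIN2. With each cell thinned to 1000 UMIs it was -0.97, -0.84, -1.02 and 0.60, so the first 3 values moved away from 0 with thinning and kept their sign.

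After thinning, XDH was detected in 69.0% of epithelial cells at L0 and 36.7% at L20, BTN1A1 in 60.1% and 35.7%, MFGE8 in 78.8% and 40.5%, and PLIN2 in 48.8% and 57.2%. In lymphoid cells, with median depths of 1625 and 1616 UMIs, the thinned shares were 7.79% and 1.18% for XDH, 6.49% and 0.753% for BTN1A1, 16.9% and 2.48% for MFGE8 and 7.79% and 7.10% for PLIN2. In epithelial cells of L20 milk BTN1A1 was found in 53.7% of those with an XDH UMI and 25.2% of those without, and MFGE8 in 64.2% and 26.8%. In L0 milk the shares lay closer together, at 63.3% and 52.9% for BTN1A1 and 83.1% and 69.4% for MFGE8.

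XDH, BTN1A1 and MFGE8 in milk came almost wholly from epithelial cells, which held 93.4% to 96.8% of their UMIs. Of all UMIs, epithelial cells held 69.0% in L0 milk and 21.7% in L20 milk. In myeloid cells the 3 genes were at 110, 74.2 and 161 CPM at L0 and 11.5, 7.52 and 26.2 for L20, close to the lymphoid levels of 99.7, 59.1 and 144 for L0 and 11.6, 8.54 and 26.1 for L20. PLIN2 was not at the lymphoid level in myeloid cells. It was at 417 CPM (408 to 426) at L0 and 1431 (1417 to 1445) at L20 in myeloid cells, against 73.9 (52.8 to 101) and 93.5 (80.5 to 108) in lymphoid cells. The myeloid markers pool genes such as CD163, CSF1R, MSR1 and MRC1 with CSF3R, MMP8 and S100A8. The class can therefore mix cell types, and whether their mix differed between the libraries was not tested. Epithelial cells held 81.4% of PLIN2 UMIs in L0 milk and 20.8% in L20 milk, beside 69.0% and 21.7% of all UMIs. In L20 milk the PLIN2 level in myeloid cells was above that in epithelial cells.

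**Figure D4:**
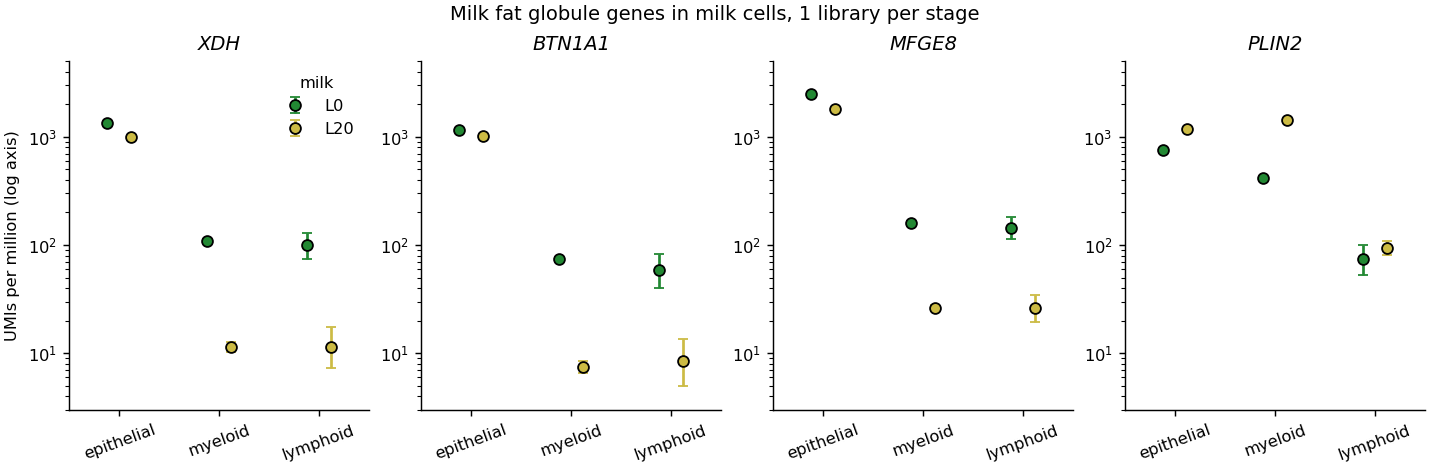
Level of each gene (CPM, log axis) in epithelial, myeloid and lymphoid cells of the L0 and L20 milk, 1 library each, with exact 95% Poisson intervals. XDH, BTN1A1 and MFGE8 in myeloid cells lay close to the lymphoid level, while PLIN2 in myeloid cells of L20 milk reached 1431 CPM.

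Levels in L20 milk and in the glands labelled L20 are given side by side. Caseins made up 23.1% of UMIs in epithelial cells of L20 milk and 0.0841% and 0.0526% in epithelial nuclei of the L20 glands. BTN1A1 was at 1023 CPM in the cells and 107 and 49.0 in the nuclei, and XDH at 994 and at 1041 and 171. Nuclei and whole cells were prepared with different kits and hold different RNA pools, so a difference of level between them was not tested.

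The last samples were the tissue sections, 4721 spots of G90 and 2248 of PI2, at median depths of 8062 and 5927 UMIs. A spot can hold several cells of different classes. XDH was at 664 CPM (656 to 671) in the G90 section and 6.98 (5.81 to 8.32) in the PI2 section, a 95.1-fold difference between these sections. BTN1A1 was at 17.4 (16.2 to 18.7) and 0.503 (0.230 to 0.954), the latter from 9 UMIs. MFGE8 was at 1069 (1060 to 1079) and 293 (285 to 301), and PLIN2 at 586 (579 to 594) and 394 (384 to 403). With 1 section per stage, section and stage cannot be told apart.

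The order of the sections was the same in each gene, but the gap was wide for XDH and BTN1A1 and narrow for PLIN2 (1.49-fold). XDH had a UMI in 86.0% of G90 spots and 4.72% of PI2 spots, and PLIN2 in 89.1% and 68.2%. Caseins made up 0.0970% of UMIs in the G90 section and 0.00484% in the PI2 section. Markers of the epithelial class were at 2084 CPM in the G90 section and 2726 in the PI2 section, those of myeloid cells at 241 and 711, of fibroblasts at 4073 and 3086 and of adipocytes at 51.1 and 29.9. Their part in these differences was not tested.

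Spots were ranked by their share of epithelial marker UMIs and cut into 3 groups of equal size. In the G90 section, XDH was at 510 CPM in the group with the smallest share and 716 in that with the largest (log2 ratio 0.49, 0.44 to 0.54), BTN1A1 at 13.4 and 18.7 (0.48, 0.19 to 0.78) and PLIN2 at 531 and 604 (0.18, 0.14 to 0.23). MFGE8 ran the other way, at 1117 and 963 (-0.22, -0.25 to -0.18). In the PI2 section XDH was at 4.28 and 8.18, MFGE8 at 261 and 336, and PLIN2 at 322 and 402, and BTN1A1 had 0 UMIs in the 749 spots with the smallest share, which allows up to 0.855 CPM at 3 UMIs.

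**Figure D5:**
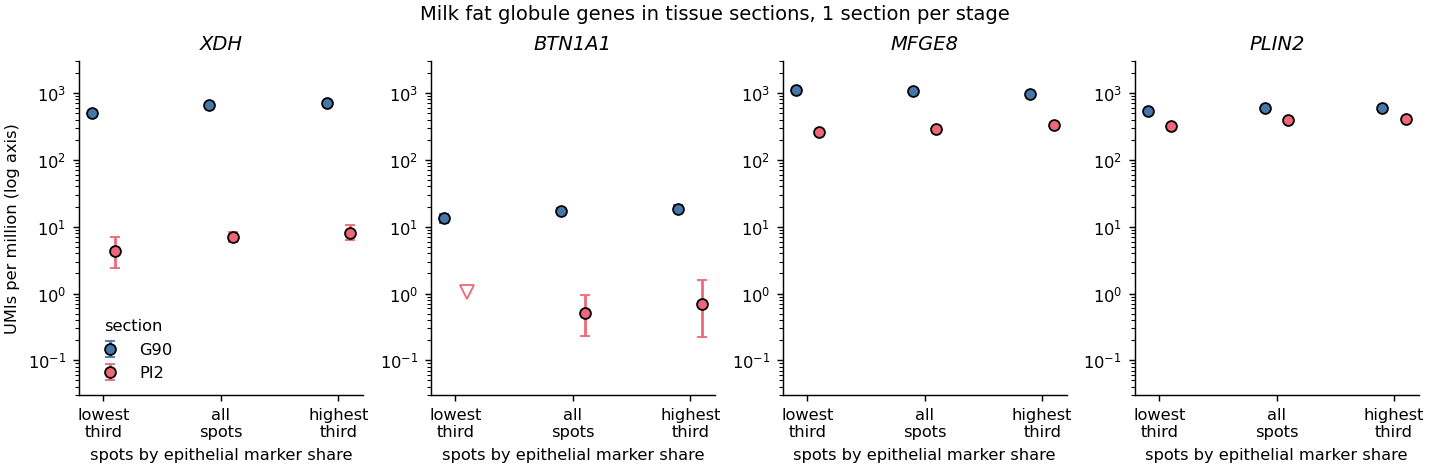
Level of each gene (CPM, log axis) in the G90 and PI2 sections, with exact 95% Poisson intervals. Points are over all spots and over the spots with the smallest and the largest share of epithelial marker UMIs. An open triangle marks the upper limit of the Poisson interval where there was no UMI (BTN1A1 in PI2, 1.05 CPM). The sections stood far apart for XDH (664 and 6.98 CPM) and close for PLIN2 (586 and 394 CPM).

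Spots with at least 2 UMIs of adipocyte markers were few, 388 in the G90 section and 95 in the PI2 section. PLIN2 was at 559 CPM (528 to 591) in those of G90 and 588 (580 to 596) in the 3548 spots with no such UMI, and at 405 (361 to 453) and 388 (378 to 398) in PI2. XDH was lower in the adipocyte spots of G90, at 540 (510 to 572) against 670 (661 to 679). Median depth in the G90 section was 3417 UMIs in these spots and 8760 in those without adipocyte markers.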

How the data were processed

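Single-nucleus, single-cell and spatial libraries were read as deposited UMI counts per gene and barcode. The authors made the gland and milk counts with CeleScope and the section counts with Space Ranger (1.2.0 in the submitters' processing notes, 1.3.1 in a file header), on Sscrofa11.1. For the annotation, no release is given in the sources used here. Members and gene lists were chosen with earlier results of these data known.

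Barcodes were kept from 300 genes on, up to a mitochondrial share of 25%. Classes needed at least 2 marker UMIs and more than all other classes together, and KRT19, KRT17 and MKI67 were not found among the markers. Counts were summed per gland, and per gland and class from 20 nuclei on. Stages were fitted in edgeR 4.0.16 (R 4.3.3, limma 3.58.1) with all 10 glands, and classes with the gland as a block, after TMM scaling and a filter on low counts. A call needed a Benjamini-Hochberg adjusted p under 0.05 and an absolute log2 fold change over 1. The SE given with an edgeR log2 fold change was derived, as its absolute value divided by the square root of the F statistic. DESeq2 1.42.0 was an alternative. Scripts were tested on simulated data. Milk and section intervals are exact Poisson intervals at 95%, and a count of 0 was given an upper limit of 3 UMIs. Named genes were the 4 members, the 3 genes most correlated with each, the 3 genes of each list with the highest mean CPM, and list genes called between classes. For MFGE8, 1 of the correlated genes is not reported here. Scrublet's automatic threshold (scanpy 1.11.5) marked 420 nuclei (0.331%), 417 of them in PI7 replicate 2, and was taken as not having worked over all glands, so no doublets were removed. It was not run on milk.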

Additional observations from a re-analysis of the deposited data

How the results depend on the processing

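Of the values for single genes in the gland, 387 kept their direction and side of the threshold, 18 passed it, 21 no longer did and 4 turned direction. Called members for PI7 against G90 were 0, and 1 (XDH) with DESeq2, with no low-count filter and with the 2 stages alone, in all nuclei and in epithelial nuclei. In epithelial nuclei, leaving out 1 gland moved BTN1A1 for PI7 against G90 between -5.99 and 3.49 (without G90 replicate 2), and MFGE8 for lactating against other stages between -0.23 (without L20 replicate 1) and 1.26. The cause was not tested.

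Without the gland as a replicate block, the members called higher in epithelial nuclei were 1 against myoepithelial, 1 against fibroblast, 2 against endothelial, 1 against adipocyte and 2 against myeloid nuclei, beside 673, 1258, 1214, 1261 and 1868 of all 12806 genes, and MFGE8 against mural nuclei turned to 0.49. Against mural nuclei 1 member was called higher with at least 50 nuclei per sum (1763 of 15220 genes) and with classes from clusters (883 of 18107). MFGE8 against fibroblasts was at -0.0016 with DESeq2. Between stages, replicate numbers did not pair the glands: correlations of their deviations lay between -0.52 and 0.39 over all nuclei and -0.44 and 0.29 in epithelial nuclei, and with the replicate block 0 members and 0 of all genes were called.

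List genes called in any stage contrast were 19 with DESeq2 and 9 with no low-count filter over all nuclei, and 18 and 12 in epithelial nuclei, where leaving out 1 gland gave 0 to 2. Over all genes, single contrasts called 15 to 1117 (DESeq2) and 0 to 269 (no filter) of 28707 over all nuclei, and 6 to 873 and 0 to 447 of 27788 in epithelial nuclei. With the 2 stages alone, L0 against G90 called 407 of 20211 and 1002 of 18734 genes, and with L0 alone as lactating, 93 of 22695 and 248 of 19400, with 0 members among them. In milk, the log2 ratios of L20 to L0 after thinning were -0.97 (XDH), -0.84 (BTN1A1), -1.02 (MFGE8) and 0.60 (PLIN2), and MFGE8 was at -0.43 with a stricter quality filter. With 5 groups of spots in place of 3, the ratio was 0.71 for XDH, -0.31 for MFGE8 and 0.33 for PLIN2 in G90, and 0.75 for PLIN2 in PI2. PLIN2 between sections was at -0.74 after thinning. Removing the nuclei Scrublet calls was not run. Removal of the top 5% by score and the comparisons with lymphoid nuclei were chosen after seeing the data. Sums of few nuclei limit the mural and adipocyte values most.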
